A study of Mus musculus with 8 samples.

Results

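The 6 genes described here make the core of MHC class II antigen presentation: H2-Aa, H2-Ab1, H2-Eb1, Cd74, H2-DMa and their coactivator Ciita. They were chosen by symbol, and each was measured by 1 row of the array, so that all 6 were among the 19938 genes tested. The samples were macrophages washed from the peritoneal cavity of wild-type C57/Bl6 mice. The cells of 10 mice were pooled and kept overnight in RPMI medium with 5% FCS. They then received HRG (histidine-rich glycoprotein, a protein of blood plasma) in recombinant form at 1 µg/ml, or were left untreated (basal), for 24 h or 6 h. The groups were HRG at 24 h, basal at 24 h, HRG at 6 h and basal at 6 h, with 2 arrays each. Since the cells of mice were pooled and no single mice were measured, p-values reflect no more than how these samples scatter. That scatter may be technical in origin. The comparisons address how HRG alters the class II genes at each time and how these genes move with time in culture.

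MHC class II molecules carry peptides from endocytosed proteins to the surface of macrophages, dendritic cells and B cells, where CD4+ T cells read them. H2-Aa and H2-Ab1 encode the alpha and beta chains of the I-A molecule, and H2-Eb1 encodes the beta chain of I-E. C57BL mice make no I-E alpha chain from H2-Ea. Cd74 encodes the invariant chain, which fills the peptide groove of new class II molecules until they reach the endosome. H2-DMa encodes the alpha chain of H2-M, which helps to exchange the remnant of the invariant chain for peptide. Ciita encodes the coactivator that drives transcription of these genes; it binds no DNA itself but docks on RFX, CREB and NF-Y complexes held at the X, X2 and Y boxes of their promoters.

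The promoters of H2-Aa and H2-Eb1 are shown because these boxes are the common feature through which Ciita acts. In the RefSeq promoter table (build GRCm38.p6, 250 bases before to 50 after each listed start), windows of H2-Aa, H2-Eb1 and H2-DMa were found. The stretch from 110 to 21 bases before the start lies at chr17:34287844-34287933 on the minus strand for H2-Aa and at chr17:34305757-34305846 on the plus strand for H2-Eb1. Capitals mark matches to the searched motifs, on either strand.
H2-Aa: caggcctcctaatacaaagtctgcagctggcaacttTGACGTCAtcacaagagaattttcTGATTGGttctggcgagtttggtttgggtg
H2-Eb1: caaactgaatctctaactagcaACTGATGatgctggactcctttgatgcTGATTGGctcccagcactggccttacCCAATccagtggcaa
The Y box core TGATTGG stood 50 to 44 bases before the start of H2-Aa and 61 to 55 bases before that of H2-Eb1. On either strand, it occurred in 7.82% of the 32851 promoter windows of the table. The shorter core ATTGG, which lies within TGATTGG, occurred in 37.4% of windows, and H2-Eb1 held a further copy on the opposite strand at 35 to 31 bases. Upstream of the Y box core, H2-Aa held the palindrome TGACGTCA at 74 to 67 bases, a letter string of the X2 box type that was chosen after these sequences were seen and occurred in 1.79% of windows. H2-Eb1 held ACTGATG, a match to the X box end ACNGATG, at 88 to 82 bases. That string occurred in 9.85% of windows, and H2-Aa had it on the opposite strand farther out, at 232 to 226 bases. In the 2 windows listed for H2-DMa, the only one of these strings found was ATTGG, in 1 window at 198 to 194 bases. The windows lie at chr17:34122582-34122881 and chr17:34125268-34125567. Both are inside the stretch of its array row, chr17:34119693-34139101, and at neither end of it. Other possible starts of H2-DMa were not searched, so whether its promoter in use lacks these boxes was not tested. The matches above describe letters in the windows and no binding was measured.

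Expression is given as log2 levels, on which a difference of 1 is a doubling. The 8 arrays had medians between 7.18 and 7.29, and replicates correlated at r of 0.996 to 0.998 across genes. Differences were tested with limma, fitted to all genes and adjusted by Benjamini-Hochberg over the 19938 genes, with a threshold of 0.05. The small number of arrays limits the precision, so each difference is given with its standard error (SE) or 95% interval.

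After 24 h, 5 of the 6 genes were expressed at higher levels in HRG-treated than in basal cells: both I-A chains, the I-E beta chain, the invariant chain and H2-DMa. The rise was between 1.51-fold for H2-Ab1 and 2.14-fold for H2-Aa, while the difference of Ciita did not pass the threshold. Across all genes, 2.43% rose and 1.05% fell in this comparison. The members had a median difference of 0.72, and all genes one of -0.019.

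The I-A alpha chain gene H2-Aa stood at 10.55 and 10.54 on the HRG arrays at 24 h, against 9.78 and 9.12 on the basal arrays. Both HRG arrays were above both basal arrays, and the basal arrays lay far apart. The difference was 1.10 ± 0.16 (SE; limma adjusted p = 0.0030), the greatest of the 6. The I-A beta chain gene H2-Ab1 had levels of 11.18 and 11.17 with HRG and of 10.64 and 10.52 in basal cells. Its groups were separate and each was narrow, with a difference of 0.59 ± 0.099 (adjusted p = 0.0055). H2-Eb1, the I-E beta chain gene, measured 10.27 and 10.19 with HRG and 9.81 and 9.24 without. It was 1.63-fold higher with HRG (adjusted p = 0.027), and its basal arrays again lay apart while its HRG arrays did not.

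The genes that accompany and load the chains were also higher. Cd74, the invariant chain, reached 11.51 and 11.34 on the HRG arrays and 10.57 and 10.27 on the basal arrays at 24 h. Its difference of 1.00 ± 0.12 (adjusted p = 0.00051) was past the threshold by the widest margin of the 6. H2-DMa measured 8.98 and 8.84 with HRG and 8.25 and 8.10 in basal cells. Here too the groups did not overlap, with a difference of 0.73 ± 0.10 (adjusted p = 0.0021).

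Ciita was the only one of the 6 genes whose groups overlapped at 24 h. Its levels were 7.39 and 7.46 with HRG and 7.40 and 6.99 without. One basal array thus lay level with the HRG arrays and the other below them. The difference was 0.23, with a 95% interval from -0.039 to 0.50 (adjusted p = 0.51). Counted by overlap alone, HRG arrays lay above basal arrays at 24 h for 5 of the 6 genes, all but Ciita, and for 19.1% of all genes.

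**Figure D1:**
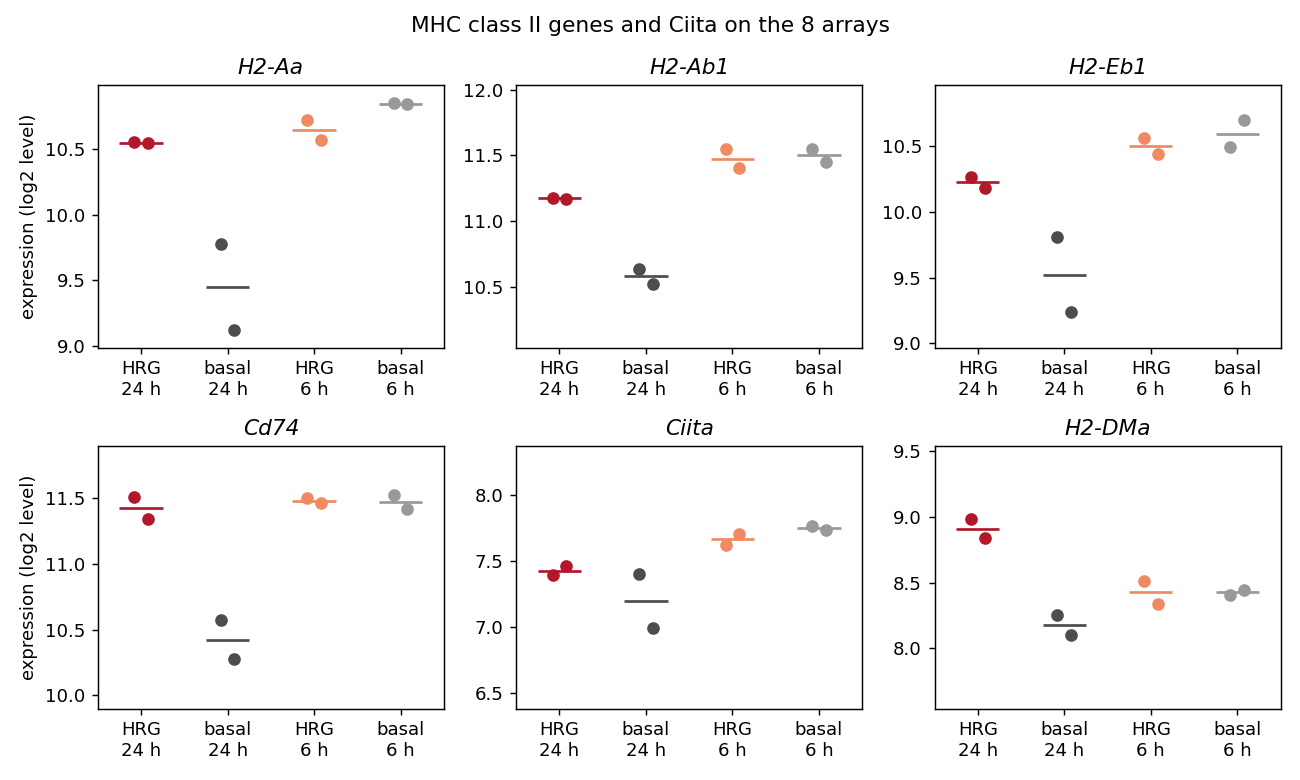
Log2 expression level (vertical axis, a separate range per gene) of the 6 genes on each of the 8 arrays, by group; points are arrays and lines are means of 2. Basal cells at 24 h had the lowest arrays of all 6 genes, and H2-DMa was highest with HRG at 24 h.

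All 6 genes had their lowest level of the 8 arrays on basal replicate 2 at 24 h. Without that array the difference of H2-Eb1 was 0.42 (adjusted p = 0.21) and that of H2-Ab1 was 0.53 (adjusted p = 0.063), so that 3 of 6 genes passed; 3 also passed without HRG replicate 1 at 24 h (H2-Eb1 0.66, adjusted p = 0.25; H2-Ab1 0.59, adjusted p = 0.068), and 4 without HRG replicate 2 at 24 h (H2-Eb1 0.75, adjusted p = 0.12). H2-Aa, Cd74 and H2-DMa kept their calls with each array left out in turn, with differences of 0.77 to 1.43, 0.85 to 1.15 and 0.66 to 0.81.

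After 6 h, HRG had not moved the class II genes past the threshold. None of the 6 genes rose or fell in limma's test. An unadjusted p under 0.05 was reached by 0 of 6, and by 2194 of all 19938 genes. Across all genes, 0.431% rose and 0.818% fell. The median difference was -0.055 for the members and 0.019 for all genes. The 6 h arrays carried H2-Aa at 10.72 and 10.57 with HRG and at 10.85 and 10.84 in basal cells. Both HRG arrays lay slightly below the basal arrays, by 0.20 ± 0.16 (adjusted p = 0.75). H2-Ab1 had 11.55 and 11.40 with HRG and 11.55 and 11.45 without. H2-Eb1 had 10.56 and 10.44 with HRG and 10.49 and 10.70 without. For both beta chains the arrays of the 2 groups overlapped. Cd74 had 11.50 and 11.46 with HRG and 11.53 and 11.42 in basal cells, and H2-DMa had 8.51 and 8.34 with HRG and 8.41 and 8.44 in basal cells. These pairs were interleaved, with differences of 0.0076 and 0.00011. Ciita had 7.62 and 7.71 with HRG and 7.77 and 7.74 in basal cells, a difference of -0.086 ± 0.12 (adjusted p = 0.89).

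The 95% intervals at 6 h leave room for modest effects. They ran from -0.56 to 0.16 for H2-Aa, from -0.24 to 0.19 for H2-Ab1, from -0.44 to 0.25 for H2-Eb1 and from -0.24 to 0.26 for Cd74. Those of Ciita and H2-DMa ran from -0.36 to 0.18 and from -0.23 to 0.23. For all 6 genes, Ciita included, the difference measured at 24 h lay above the upper end of the interval at 6 h.

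The change of the HRG effect with time was tested directly, as the effect at 24 h minus the effect at 6 h. It passed for H2-Aa (1.30 ± 0.23, adjusted p = 0.021), Cd74 (0.99 ± 0.16, adjusted p = 0.013) and H2-DMa (0.73 ± 0.15, adjusted p = 0.032). Across all genes, 1.02% of these differences were positive and past the threshold, and 0.451% negative. H2-Ab1 lay just short of the threshold at 0.62 ± 0.14 (adjusted p = 0.054). H2-Eb1 had 0.80 ± 0.22 (adjusted p = 0.12), and Ciita 0.32 ± 0.18 (adjusted p = 0.57). With 1 array left out at a time, between 0 and 4 of the 6 passed; none did without HRG replicate 2 at 6 h or HRG replicate 1 at 24 h, and 1 did without HRG replicate 2 at 24 h.

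**Figure D2:**
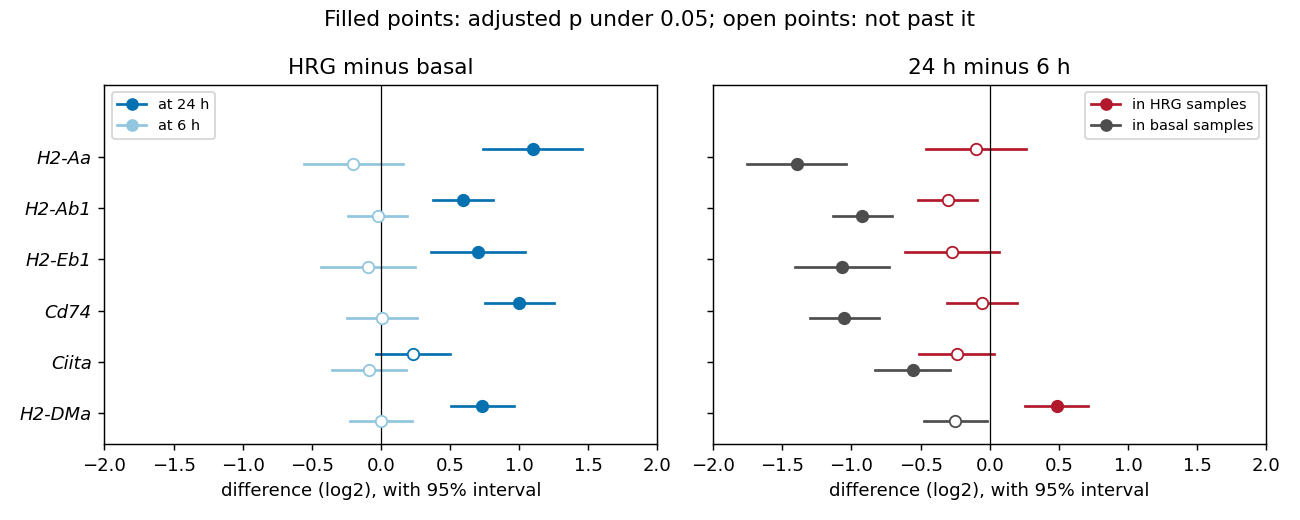
Log2 difference (horizontal axis) of each gene with its 95% interval, for HRG minus basal at 24 h and 6 h (left) and for 24 h minus 6 h in HRG and basal samples (right); filled points passed an adjusted p of 0.05. On the left 5 filled points lie right of 0, all from 24 h, and on the right 5 basal points lie left of 0 and only H2-DMa with HRG lies right of it among filled points.

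Time in culture separated the groups in the opposite direction. In basal cells, the 3 chain genes, Cd74 and Ciita all fell between 6 h and 24 h, the levels at 24 h being 1.47-fold to 2.63-fold below those at 6 h. Across all genes, 3.8% rose and 5.48% fell with time in basal cells. The members' median was -0.99 and that of all genes 0.028. The fall was 1.40 ± 0.16 for H2-Aa (adjusted p = 0.00026), on arrays at 9.78 and 9.12 after 24 h and at 10.85 and 10.84 after 6 h. H2-Ab1 fell by 0.92 ± 0.099 (adjusted p = 0.00014) and H2-Eb1 by 1.07 ± 0.16 (adjusted p = 0.0011). Cd74 fell by 1.05 ± 0.12 (adjusted p = 0.00016). In these bulk samples, fewer cells of a type and less RNA per cell cannot be told apart.

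Ciita itself fell by 0.56 ± 0.12 (adjusted p = 0.014). Without basal replicate 2 at 24 h its difference was -0.35 (adjusted p = 0.12), and without basal replicate 1 at 6 h it was -0.54 (adjusted p = 0.062). H2-DMa had a difference of -0.25, with a 95% interval from -0.48 to -0.022 (adjusted p = 0.19). For all 6 genes both basal arrays at 24 h lay below both basal arrays at 6 h, as they did for 21.7% of all genes. The falls of H2-Aa, H2-Ab1, H2-Eb1 and Cd74 stayed past the threshold without any 1 array.

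In HRG-treated cells, none of the 6 genes fell past the threshold between 6 h and 24 h, and H2-DMa rose. Across all genes, 4.41% rose and 2.87% fell with time under HRG. Of the 6 genes 2, H2-Ab1 and H2-DMa, reached an unadjusted p under 0.05, as did 3766 of all 19938 genes. The median difference was -0.17 for the members and -0.020 for all genes. H2-DMa rose by 0.48 ± 0.10 (1.40-fold, adjusted p = 0.014), with 8.98 and 8.84 at 24 h and 8.51 and 8.34 at 6 h. That call was lost without HRG replicate 2 at 6 h (0.40, adjusted p = 0.15) and without HRG replicate 1 at 24 h (0.42, adjusted p = 0.13). H2-Aa and Cd74 had differences of -0.099 (95% interval -0.46 to 0.26) and -0.056 (-0.31 to 0.19). H2-Ab1 was lower at 24 h by 0.30 ± 0.099, which missed the threshold (adjusted p = 0.094). H2-Eb1 and Ciita had -0.27 ± 0.16 and -0.24 ± 0.12 (adjusted p = 0.41 and 0.34). The test of whether the time course differed between HRG and basal cells is the same as that of the change of the HRG effect above, and it passed for H2-Aa, Cd74 and H2-DMa.

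By group mean, the chain genes and Ciita shared 1 order: lowest in basal cells at 24 h, then HRG cells at 24 h, HRG cells at 6 h, and highest in basal cells at 6 h. H2-Aa averaged 10.55 ± 0.0060 with HRG and 9.45 ± 0.46 in basal cells at 24 h, and 10.65 ± 0.11 with HRG and 10.85 ± 0.0100 in basal cells at 6 h (SD, n = 2 each). H2-Ab1 averaged 11.17 ± 0.0076 with HRG and 10.58 ± 0.084 in basal cells at 24 h, and 11.48 ± 0.10 with HRG and 11.50 ± 0.073 in basal cells at 6 h. H2-Eb1 averaged 10.23 ± 0.059 with HRG and 9.52 ± 0.41 in basal cells at 24 h, and 10.50 ± 0.084 with HRG and 10.59 ± 0.14 in basal cells at 6 h. For these 3 chain genes the lowest step, between HRG and basal cells at 24 h, was past the threshold, and the other neighbouring groups did not differ past it. Ciita averaged 7.43 ± 0.047 with HRG and 7.20 ± 0.29 in basal cells at 24 h, and 7.67 ± 0.060 with HRG and 7.75 ± 0.019 in basal cells at 6 h, and none of its neighbouring groups differed past the threshold.

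Cd74 had the same lowest group but level groups at 6 h. It averaged 11.42 ± 0.12 with HRG and 10.42 ± 0.21 in basal cells at 24 h, and 11.48 ± 0.026 with HRG and 11.47 ± 0.074 in basal cells at 6 h. H2-DMa stood apart, with its highest mean in HRG cells at 24 h. It averaged 8.91 ± 0.097 with HRG and 8.18 ± 0.11 in basal cells at 24 h, and 8.43 ± 0.12 with HRG and 8.43 ± 0.027 in basal cells at 6 h.

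H2-DMa also differed from the others array by array. Across the 8 arrays, H2-Aa, H2-Ab1, H2-Eb1 and Cd74 correlated with each other at Pearson's r of 0.933 to 0.978. Ciita correlated with these 4 genes at 0.820 to 0.939, the highest value being with H2-Eb1. The values of H2-DMa were lower, between 0.178 with Ciita and 0.635 with Cd74. The arrays share groups, so these values describe the group pattern more than 8 independent points. Other genes were ranked by likeness to the mean of the members if brighter than the median gene and spanning at least 0.5 over the arrays. Predicted genes, clone names, small RNAs and antigen receptor segments were left out. Among the 3292 genes ranked, the 8 most alike were Ccr6 (r = 0.984), Rasgrp1 (0.976), Ccl2 (0.974), Lsp1 (0.974), Siglec1 (0.972), Sla (0.972), Slfn1 (0.971) and Gbp9 (0.971). These 8 were picked by likeness over the same arrays, so differences like those of the members follow from that choice. For example, the chemokine receptor gene Ccr6 had a difference of 0.78 between HRG and basal cells at 24 h and of -0.98 between 24 h and 6 h in basal cells. Siglec1, which encodes the macrophage adhesion receptor sialoadhesin, had 1.12 and -1.06.

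Other genes of the class II route moved in the same comparisons only in part. Of 12 measured genes for further chains and for peptide loading, 4 rose with HRG at 24 h, 0 fell and 8 did not pass, with a median of 0.34. H2-Eb2, a further beta chain gene next to H2-Eb1, was higher with HRG by 0.76 ± 0.16 (adjusted p = 0.021). It measured 8.42 and 8.33 with HRG and 7.92 and 7.29 in basal cells. Lgmn, an endosomal protease that cuts antigen and the invariant chain, was higher by 0.62 ± 0.094 (adjusted p = 0.0035), and Ifi30, a thiol reductase that unfolds antigen, by 0.52 ± 0.099 (adjusted p = 0.011). Cd83, which protects class II molecules from ubiquitination, was higher by 0.53 ± 0.10 (adjusted p = 0.012). H2-Oa and H2-Ob, the chains of the H2-M inhibitor H2-O, had 0.35 ± 0.11 and 0.67 ± 0.21, which did not pass (adjusted p = 0.15 and 0.14). H2-Ea was among the dimmest 30% of genes with a mean of 5.68, below the 6.45 that bounds them, and had a difference of -0.084 ± 0.10 (adjusted p = 0.88). Without basal replicate 2 or HRG replicate 2 at 24 h 1 of the 12 passed, and without HRG replicate 1 at 24 h 0 did.

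At 6 h, 1 of these 12 genes passed: Cd83 fell by 0.69 ± 0.10 with HRG (adjusted p = 0.0083). Its levels at 6 h were 9.74 and 9.71 with HRG and 10.54 and 10.29 in basal cells, and at 24 h they were 9.58 and 9.57 with HRG and 9.05 and 9.04 in basal cells. Cd83 was thus lower with HRG at 6 h and higher at 24 h, and its HRG effect differed between the times by 1.23 ± 0.14 (adjusted p = 0.0037). The 6 h call was lost without basal replicate 1 at 6 h (-0.57, adjusted p = 0.057) and without either HRG array at 6 h (-0.71 and -0.68, adjusted p = 0.060 and 0.10). That difference also passed for H2-Eb2, at 1.09 ± 0.23 (adjusted p = 0.038), so 2 of 12 passed; without 1 array it was 3 when basal replicate 1 at 24 h was left out, and 1 for each of the others. In basal cells 4 of the 12 fell with time: Cd83 by 1.37 ± 0.10, H2-Eb2 by 1.29 ± 0.16, H2-Ob by 1.11 ± 0.21 and H2-Oa by 0.43 ± 0.11 (adjusted p between 1.4e-05 and 0.031). Marchf1, which encodes a ubiquitin ligase that removes class II from the surface, rose by 0.60 ± 0.11 (adjusted p = 0.0048). In HRG-treated cells 4 rose and 0 fell with time, and all 4 encode lysosomal enzymes: Lgmn by 0.50 ± 0.094, Ifi30 by 0.46 ± 0.099, and the cathepsins Ctss and Ctsl by 0.40 ± 0.090 and 0.39 ± 0.098. Of these 4 rises, 0 passed without HRG replicate 1 at 6 h or at 24 h, and 1 without HRG replicate 2 at 6 h or at 24 h. Of the 6 members, only H2-DMa rose with time under HRG.

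No listed gene for the factors that work with Ciita passed the threshold with HRG at 24 h or 6 h. The 18 measured genes for class II transcription held the RFX, CREB and NF-Y subunits among others. Of these 18, 0 rose and 0 fell with HRG at 24 h in limma's test, and their median was 0.036. Across all genes 2.43% rose and 1.05% fell at 24 h, so a count of 0 among 18 says little. An unadjusted p under 0.05 was reached there by 4 of them, and by 2531 of all 19938 genes. Rfx5, which encodes a DNA-binding RFX subunit, had -0.033 ± 0.099 (adjusted p = 0.96). At 6 h 0 of the 18 passed as well, 1 with an unadjusted p under 0.05, against 2194 of all 19938 genes. In basal cells 2 fell with time: Irf4 by 1.46 ± 0.12 (adjusted p = 2.6e-05) and Spi1, which encodes PU.1, by 0.39 ± 0.10 (adjusted p = 0.035). Irf4 also fell by 0.58 ± 0.12 in HRG-treated cells (adjusted p = 0.015). Its HRG effect differed between 24 h and 6 h by 0.89 ± 0.18 (adjusted p = 0.031), the only one of the 18 to pass. With 1 array left out, 0 of the 18 passed that test in all but 2 cases, which were without basal replicate 2 at 6 h and without HRG replicate 2 at 24 h. The fall under HRG was lost without either HRG array at 6 h or HRG replicate 2 at 24 h, and 1 of the 18 fell with time in basal cells without any 1 array except basal replicate 2 at 24 h, where 2 did.

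Interferon gamma is the classical inducer of Ciita in macrophages, so its pathway and target genes were set beside the class II genes. Of 16 measured, 3 rose with HRG at 24 h and 0 fell, with a median of 0.27. These were Gbp5, an interferon-induced GTPase (0.93 ± 0.18, adjusted p = 0.013), the transcription factor Irf1 (0.41 ± 0.10, adjusted p = 0.044) and the receptor chain Ifngr1 (0.41 ± 0.090, adjusted p = 0.028). In basal cells 7 of 16 fell with time and 0 rose. The falls were largest for Gbp5 at 1.78 ± 0.18, the chemokine Cxcl10 at 1.66 ± 0.13 and the GTPase Gbp3 at 1.54 ± 0.13. Cxcl10 and Gbp3 fell in HRG-treated cells as well, by 1.80 and 1.01. Ifng itself had a difference of 0.11 ± 0.10 with HRG at 24 h (adjusted p = 0.81) and of 0.0078 with time in basal cells (adjusted p = 0.98). For HRG at 24 h, 0 of the 16 passed without basal replicate 2 or HRG replicate 1 at 24 h, 1 without HRG replicate 2 at 24 h or either HRG array at 6 h, and 5 without any 1 of the other basal arrays. For basal time, 4 fell without basal replicate 2 at 24 h or basal replicate 1 at 6 h.

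Irf1 had levels of 10.49 and 10.49 with HRG and 10.19 and 9.97 in basal cells at 24 h. At 6 h they were 10.17 and 10.12 with HRG and 10.46 and 10.45 in basal cells, a difference of -0.31 ± 0.10 that did not pass (adjusted p = 0.22). The change of its HRG effect between the times passed at 0.72 ± 0.14 (adjusted p = 0.030), 1 of 16 in that test. With 1 array left out, 2 of the 16 passed without basal replicate 2 at 6 h or basal replicate 1 at 24 h, and 0 without each of the other 6 arrays. At 6 h none of the 16 passed in limma's test, with 4 at an unadjusted p under 0.05, against 2194 of all 19938 genes.

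The class I route, which presents cytosolic peptides, had 1 gene of 15 past the threshold with HRG at 24 h. It was Psme1, a proteasome activator subunit, which rose by 0.49 ± 0.097 (adjusted p = 0.015), and the median of the list was 0.18. With time in basal cells 5 of 15 fell and 0 rose. Among them was Tap1, a subunit of the peptide transporter, by 0.67 ± 0.10 (adjusted p = 0.0015), and in HRG-treated cells it fell by 0.56 ± 0.10 (adjusted p = 0.0062). For HRG at 24 h, 0 of the 15 passed without basal replicate 2 or either HRG array at 24 h, and 2 without any 1 of the 6 h arrays. In basal cells 3 fell with time without basal replicate 1 at 6 h or either basal array at 24 h, and under HRG 0 fell without HRG replicate 1 at 6 h or HRG replicate 2 at 24 h, and 2 without HRG replicate 2 at 6 h.

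**Figure D3:**
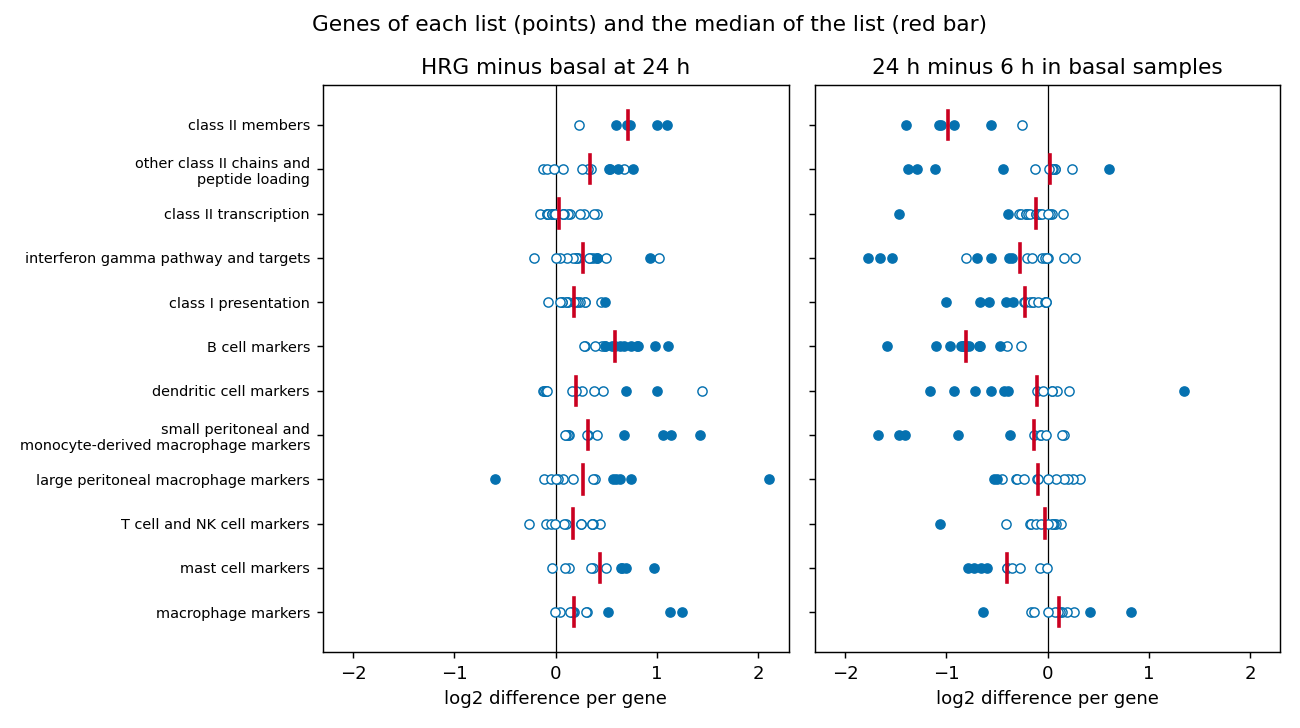
Log2 difference of each gene (points, filled where the adjusted p was under 0.05) and the median (red bar) of the 6 class II members and of the 11 other lists, for HRG minus basal at 24 h (left) and for 24 h minus 6 h in basal samples (right). The members and the B cell markers had the highest medians on the left (0.72 and 0.59) and the lowest on the right (-0.99 and -0.80). Both panels use the basal arrays at 24 h, so low levels there move them in opposite directions.

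The labels call the cells macrophages, and the 12 macrophage markers had mean log2 levels of 11.53 to 12.04 on the 8 arrays. In basal cells 2 of 12 rose with time, Mertk by 0.83 and Cd14 by 0.42, and 1 fell, and the median was 0.11. The marker that fell was Fcgr1, a receptor for immunoglobulin G, by 0.64 (adjusted p = 0.024), and with HRG at 24 h it rose by 1.13 (adjusted p = 0.0019), as 5 of the class II genes did. Its fall was lost without either basal array at 6 h or basal replicate 2 at 24 h. Csf1r and Adgre1, which encode a growth factor receptor and a surface antigen of macrophages, had differences of 0.12 and 0.0065 there (adjusted p = 0.55 and 0.98). With HRG at 24 h, 3 of 12 macrophage markers rose and 0 fell, with a median of 0.18. With time under HRG 6 of 12 rose and 0 fell, with a median of 0.27.

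Peritoneal lavage also yields B cells, which carry class II at high levels. The medians of the B cell markers had the sign of the members' medians in each comparison except time under HRG. None of the 15 measured markers was among the dimmest 30% of genes. In basal cells 13 of 15 fell with time and 0 rose, with a median of -0.80. With HRG at 24 h 9 of 15 were higher and 0 lower, with a median of 0.59. This comparison and that with time in basal cells share the basal arrays at 24 h. Cd79a, a chain of the B cell receptor complex, measured 10.09 and 9.62 with HRG and 9.08 and 8.65 in basal cells at 24 h, and 9.51 and 9.46 with HRG and 9.70 and 9.71 in basal cells at 6 h. It was 0.98 ± 0.16 higher with HRG at 24 h (adjusted p = 0.0045), and Ms4a1, which encodes CD20, was 0.80 ± 0.15 higher (adjusted p = 0.011). At 6 h and with time under HRG the medians of the 2 sets lay apart, but the sets were not tested against each other. With HRG at 6 h, 10 of the 15 markers had an unadjusted p under 0.05, as did 2194 of all 19938 genes. The median of the markers was -0.29, against -0.055 for the members. One marker passed there, Cd79b, the other chain of that complex, which fell by 0.59 (adjusted p = 0.038); without any 1 array other than the basal ones at 24 h, 0 passed. With time under HRG 1 of 15 markers rose and 1 fell, with a median of 0.19, against -0.17 for the members. The change of the HRG effect between the times passed for 11 of 15 markers, among them Cd79a at 1.20 ± 0.22 (adjusted p = 0.025). With 1 array left out, that count was 1 without basal replicate 2 at 24 h, HRG replicate 1 at 24 h or HRG replicate 2 at 6 h, 2 without HRG replicate 1 at 6 h, and 5, 6, 8 and 14 without each of the other arrays.

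The mean log2 level of the 15 markers was 8.97 and 8.74 with HRG at 24 h, 8.39 and 8.09 in basal cells at 24 h, 8.74 and 8.71 with HRG at 6 h, and 9.05 and 9.00 in basal cells at 6 h. That of the 6 members was 9.98 and 9.92, 9.41 and 9.04, 10.08 and 9.99, and 10.10 and 10.10 on the same arrays. Both were lowest on basal replicate 2 at 24 h. Without that array 2 of the 15 B cell markers were higher with HRG at 24 h, and without HRG replicate 1 at 24 h it was 1. The part of B cells in the class II differences was not tested.

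Dendritic cells are the other professional class II presenters. With HRG at 24 h 2 of their 13 markers were higher and 0 lower, with a median of 0.20; these were Itgax, the CD11c integrin chain, by 1.00 ± 0.11 (adjusted p = 0.00039), and Kmo, which was among the dimmest genes. Without basal replicate 2 or HRG replicate 1 at 24 h 1 of the 13 passed, and without HRG replicate 2 at 24 h 4 did. In basal cells 6 of 13 fell with time and 1 rose; 2 fell without basal replicate 2 at 24 h and 3 without basal replicate 1 at 6 h. Their mean log2 level was 7.59 and 7.39 with HRG at 24 h, 7.26 and 7.09 in basal cells at 24 h, 7.30 and 7.28 with HRG at 6 h, and 7.40 and 7.34 in basal cells at 6 h. Clec9a was the dendritic cell marker that rose with time in basal cells, by 1.35. With HRG at 6 h 2 of the 13 fell, Dpp4 (-0.58) and Ccr7 (-0.54), and 0 rose. Small peritoneal and monocyte-derived macrophages, which hold more class II than the large resident ones, had 4 of 11 measured markers higher with HRG at 24 h (F13a1, Folr2, Ms4a4c and Plac8, by 0.67 to 1.42) and 5 of 11 lower with time in basal cells, Irf4 being in this list too. Without HRG replicate 1 at 24 h, 2 of the 11 were higher with HRG. Their mean log2 level was 7.73 and 7.64 with HRG at 24 h and 7.25 and 7.07 in basal cells at 24 h, and between 7.65 and 7.76 on the 6 h arrays. The part of either cell type in the class II differences was not tested.

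Markers of cell types that carry little class II changed as well. Of 14 large peritoneal macrophage markers 5 rose and 1 fell with HRG at 24 h, with a median of 0.27. Of 10 mast cell markers 4 were higher with HRG at 24 h and 0 lower (median 0.43), 4 fell with time in basal cells (median -0.40), and 3 passed for the change of the HRG effect (median 0.54), the same directions as the class II genes. These comparisons all use the basal arrays at 24 h, so their directions are not independent. The part of mast cells in the class II differences was not tested. Of 12 T cell and NK cell markers, 2 fell with HRG at 6 h and 3 rose with time under HRG. In basal cells 1 fell with time, and 1 passed for the change of the HRG effect. With HRG at 24 h 0 of the 12 passed in limma's test (median 0.17). An unadjusted p under 0.05 was reached there by 3 of them, and by 2531 of all 19938 genes. Without HRG replicate 1 at 24 h, 1 large macrophage marker and 0 mast cell markers rose, and without basal replicate 1 at 24 h, 1 mast cell marker and 3 T cell and NK cell markers did. Without basal replicate 2 at 24 h, 2 large macrophage markers rose. With 1 array left out, between 2 and 5 mast cell markers fell with time in basal cells, fewest without basal replicate 1 at 24 h, and between 0 and 3 passed for the change of the HRG effect, 0 without either HRG array at 6 h or HRG replicate 1 at 24 h.

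**Figure D4:**
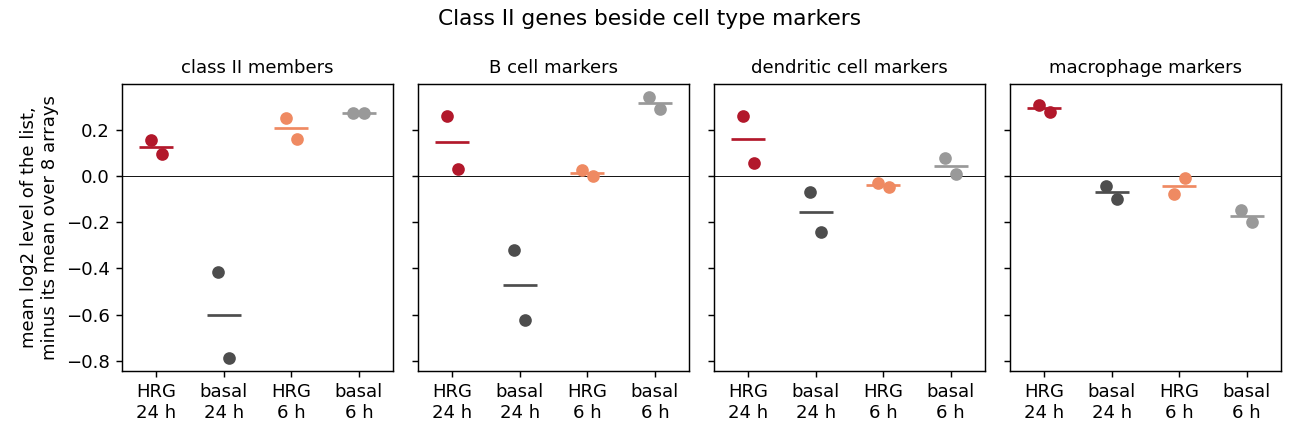
Mean log2 level of the 6 class II genes and of the B cell, dendritic cell and macrophage markers on each of the 8 arrays, as the distance from the list's mean over all arrays (vertical axis, log2); points are arrays and lines are means of 2. The class II genes and the B cell markers were lowest in basal cells at 24 h, and the macrophage markers were highest with HRG at 24 h.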

How the data were processed

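Total RNA of the 8 samples was amplified and hybridised to Affymetrix mouse gene arrays. The deposited log2 values were made by the authors with Affymetrix Expression Console and RMA, and limma was also used, per the submitters' processing notes; their versions and the build were not given in the sources used here. RMA quantile-normalizes the arrays, so a shift shared by most genes would not be seen. Of 28853 rows, 21789 carried 1 gene symbol in the platform annotation, 1621 several and 5443 none; the last 2 kinds were left out. RefSeq (GRCm38.p6) matched 21698 rows by gene ID and changed 0 symbols. Where a gene had more than 1 row (999 genes), the brightest row on average was kept, giving 19938 genes.

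A group-means model of the 8 arrays was fitted in limma 3.58.1 (R 4.3.3; 4 residual and 7.81 prior degrees of freedom), with two-sided tests and Benjamini-Hochberg adjustment over all genes. The fit was tested on simulated data. The members, 11 further gene lists (154 of 167 entries measured with the members), tests and alternatives were chosen with earlier results of these data known. Besides fixed genes, up to 4 genes per list were named, those past the threshold with the largest change; H2-Ea, Ifng, Csf1r and Adgre1 were added after their values were seen. Same-numbered replicates deviated together in some pairs of groups and oppositely in others (correlations of -0.33 to 0.41), so the numbers do not pair samples. H2-DMb1 and H2-DMb2 were not analysed here.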

Additional observations from a re-analysis of the deposited data

Results flagged for a closer look

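The effect of HRG on 3 of the 6 class II genes differed between 24 h and 6 h by a test of that difference in limma. Expressed as the effect at 24 h minus that at 6 h on the log2 scale, it was 1.30 for H2-Aa, 0.99 for Cd74 and 0.73 for H2-DMa. In H2-Aa the HRG effect was 1.10 at 24 h and -0.20 at 6 h, in Cd74 1.00 and 0.0076, and in H2-DMa 0.73 and 0.00011. Of 15 alternative settings, which include fits without 1 array, 7 lost the call of H2-DMa, 3 that of H2-Aa and 2 that of Cd74. The difference of H2-DMa ran from 0.65 to 0.82 in these settings. No group held enough arrays to look for a single array far from the others.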

How the results depend on the processing

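With 2 arrays a group, 1 array can decide a call. The numbers of members past the threshold were 5 for HRG at 24 h, 0 at 6 h, 3 for the change of the HRG effect, and 5 and 1 for culture time in basal and HRG cells. Without 1 array at a time they were 3 to 5 for HRG at 24 h, 0 to 4 for the change of the effect, 4 to 5 for basal time and 0 to 1 for HRG time. With trend and robust estimation and with quantile normalization repeated, 2 members changed with time under HRG, since H2-Ab1 passed as well (-0.30 and -0.36). With the replicate number as a block, counts were 5, 0, 4, 5 and 1, H2-Ab1 passing for the change of the effect (adjusted p = 0.044). Signs turned only among differences near 0 that did not pass: at 6 h H2-Ab1 had 0.0028 after quantile normalization, and Cd74 -0.0086 and H2-DMa -0.016 after centring. Without 1 array at a time, the 6 h differences ran from -0.098 to 0.049 for H2-Ab1, -0.20 to 0.0078 for H2-Eb1, -0.045 to 0.060 for Cd74 and -0.086 to 0.086 for H2-DMa, and that of Cd74 with time under HRG from -0.14 to 0.029. H2-Eb1 at 24 h did not pass after quantile normalization (0.68, adjusted p = 0.054). Of 474 values of the members under these alternatives, 435 kept direction and side of the threshold, 22 lost a call, 6 gained one and 11 changed sign. Over all genes, trend and robust estimation gave 180 rises and 312 falls for HRG at 6 h in place of 86 and 163, and 392 and 155 for the change of the effect in place of 204 and 90. Repeated quantile normalization gave 164 rises at 6 h and 876 falls with time under HRG in place of 572. Fitting only the arrays compared gave 97 falls at 6 h and 911 with time under HRG. The lowest counts without 1 array were 10 rises and 11 falls for HRG at 6 h, 110 and 72 for HRG at 24 h in place of 485 and 209, 28 and 28 for the change of the effect, 373 and 600 for basal time in place of 758 and 1093, and 390 and 139 for HRG time in place of 880 and 572. The cause was not tested.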
